A study of Mus musculus with 32 samples.

Results

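Socs1, Socs2, Socs3, Cish, Pim1 and Pim2 are the inhibitory SOCS family genes and the Pim kinase genes described here. They were chosen by name, and all 6 were listed among the 24475 genes of the RPKM tables (reads per kilobase of transcript, scaled to depth) of both cell lines. Of the 215616 peaks in 8 ChIP-seq peak lists, 181 carried 1 of these 6 gene names and were taken as the members' peaks. The study asked how the zinc finger factor Bcl11b acts in group 2 innate lymphoid cells and in early T-lineage cells. ILC2/b6 is a mouse line of group 2 innate lymphoid cells, and Scid.adh.2c2 is a mouse line that resembles pro-T cells. mRNA was measured in ILC2/b6 cells transduced with sgBcl11b-CFP (2 libraries) or sgControl-CFP (2 libraries), and in Scid.adh.2c2 cells transduced with sgBcl11b-CFP (2 libraries) or sgControl-CFP (2 libraries). Binding of Bcl11b, GATA3, Runx1 and Runx3 was measured in each line, from 2 ChIP libraries per factor.

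Per the labels' protocols, all ILC2/b6 cells grew in medium with 10 ng/ml each of the cytokines IL-7, IL-2 and IL-33, while the medium given for Scid.adh.2c2 names no cytokine. Cell line and medium therefore cannot be told apart. Each line is 1 continuous line, and the sources used here give neither the guide sequences, nor the source of Cas9, nor a sort of transduced cells, nor whether the 2 libraries of a group came from separate cultures. P-values thus measure the spread between these libraries, which may be technical.

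Cytokines such as IL-2 and IL-7 bind receptor chains that activate JAK kinases, which phosphorylate STAT transcription factors. STATs in turn switch on SOCS genes and Cish, whose proteins hold back the same receptors and kinases in a feedback loop, and they also switch on the Pim genes, which encode serine/threonine kinases that favour survival and growth. In lymphocytes this loop sets how strongly and how long a cell answers the cytokines that keep it alive.

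The RNA libraries held 34.7 to 43.7 M reads (M, mega). Bcl11b mRNA itself was 7.04 and 7.24 RPKM with the Bcl11b guide, against 6.85 and 6.33 RPKM with the control guide in ILC2/b6, and 47.1 and 46.8 RPKM with the Bcl11b guide, against 47.0 and 49.5 RPKM with the control guide in Scid.adh.2c2. Neither difference passed the test (adjusted p = 0.278 in ILC2/b6 and 0.455 in Scid.adh.2c2), and a guide that changes the reading frame need not change the mRNA level, so this value does not check the labels. All 9 ILC2 markers were at 1 RPKM or more in ILC2/b6, and all 8 pro-T markers were in Scid.adh.2c2. In all libraries of the other line, 3 of the 9 ILC2 markers and 1 of the 8 pro-T markers were as well. With the control guide the ILC2 marker Rora was 6.37 and 6.83 RPKM in Scid.adh.2c2, against 3.21 and 3.85 RPKM in ILC2/b6. The pro-T marker Il2ra was 915 and 907 RPKM in ILC2/b6, against 150 and 168 RPKM in Scid.adh.2c2. No B cell, myeloid or stromal marker reached 1 RPKM in all libraries of either line. Some marker sums moved with the guide. In ILC2/b6 the ILC2 markers summed to 5892 to 6042 RPKM with the Bcl11b guide, against 8313 to 8488 RPKM with the control guide. In Scid.adh.2c2 the pro-T markers summed to 756 to 762 RPKM with the Bcl11b guide, against 1177 to 1208 RPKM with the control guide. The 5 myeloid markers there summed to 3.09 to 3.71 RPKM, against 0.044 to 0.047 RPKM. With the Bcl11b guide this myeloid sum was mostly Spi1, at 3.315 and 2.711 RPKM, against 0 and 0.02 RPKM with the control guide. Adgre1 was 0.38 and 0.355 RPKM, against 0 RPKM in both controls. Csf1r, Cd14 and Lyz2 were at 0.044 RPKM or less in all libraries of this line. Not every marker followed its sum. Il5, Il13 and Areg were lower with the Bcl11b guide in ILC2/b6, while Icos was 59.0 and 58.4 RPKM, against 40.1 and 46.0 RPKM with the control guide, and Klrg1 151.4 and 151.0 RPKM, against 133.8 and 132.8 RPKM. Among the pro-T markers of Scid.adh.2c2, Lck, Thy1, Tcf7, Rag1, Ptcra and Il2ra were lower with the Bcl11b guide. Cd3g was 157.9 and 161.2 RPKM with the Bcl11b guide, against 136.4 and 129.9 RPKM with the control guide. Cd3e was 172.5 and 174.4 RPKM, against 172.9 and 173.7 RPKM. Of the 4 NK cell markers, Ncr1 in Scid.adh.2c2 was 37.6 and 36.3 RPKM with the Bcl11b guide, against 0.142 and 0.258 RPKM with the control guide. The NK sums, nearly all Gzma in ILC2/b6, were 632 to 677 RPKM with the Bcl11b guide, against 801 to 802 RPKM with the control guide in that line, and 139 to 142 RPKM, against 198 to 210 RPKM in Scid.adh.2c2. Eomes and Klrb1c, which mark NK cells, stayed under 1 RPKM in all 8 libraries. In Scid.adh.2c2, Klrb1c was 0.993 and 0.922 RPKM with the Bcl11b guide, against 0.079 and 0.022 RPKM with the control guide. Eomes was 0.06 and 0.048 RPKM there, against 0.006 and 0.008 RPKM. Gzma went the other way in that line, at 100 and 105 RPKM, against 209 and 198 RPKM. The part of these shifts in the results that follow was not tested. In bulk libraries fewer cells of a type and less RNA per cell cannot be told apart.

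All 6 genes were far more abundant in ILC2/b6 than in Scid.adh.2c2. With the control guide, their mean levels in ILC2/b6 ran in the order Pim1, Socs1, Cish, Socs3, Pim2 and Socs2, and the 2 libraries of neighbouring genes in this order did not overlap. Pim1 lay above 96.4% of the genes tested in that line, Socs1 above 95.4%, Cish above 93.9%, Socs3 above 92.7%, Pim2 above 92.0% and Socs2 above 68.0%. In Scid.adh.2c2 with the control guide the order was Socs3, Pim2, Pim1 and Socs2, again without overlap, and Socs1 and Cish followed at a few reads per library. There Socs3 lay above 54.0% of the genes tested, Pim2 above 34.9%, Pim1 above 19.7% and Socs2 above 3.61%. With the Bcl11b guide the order of the Scid.adh.2c2 cells became Pim1, Pim2, Socs2 and Socs3, and the libraries of Pim1 and Pim2 overlapped. The tables of the 2 lines were deposited apart, so levels between lines are a description with no test.

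**Figure D1:**
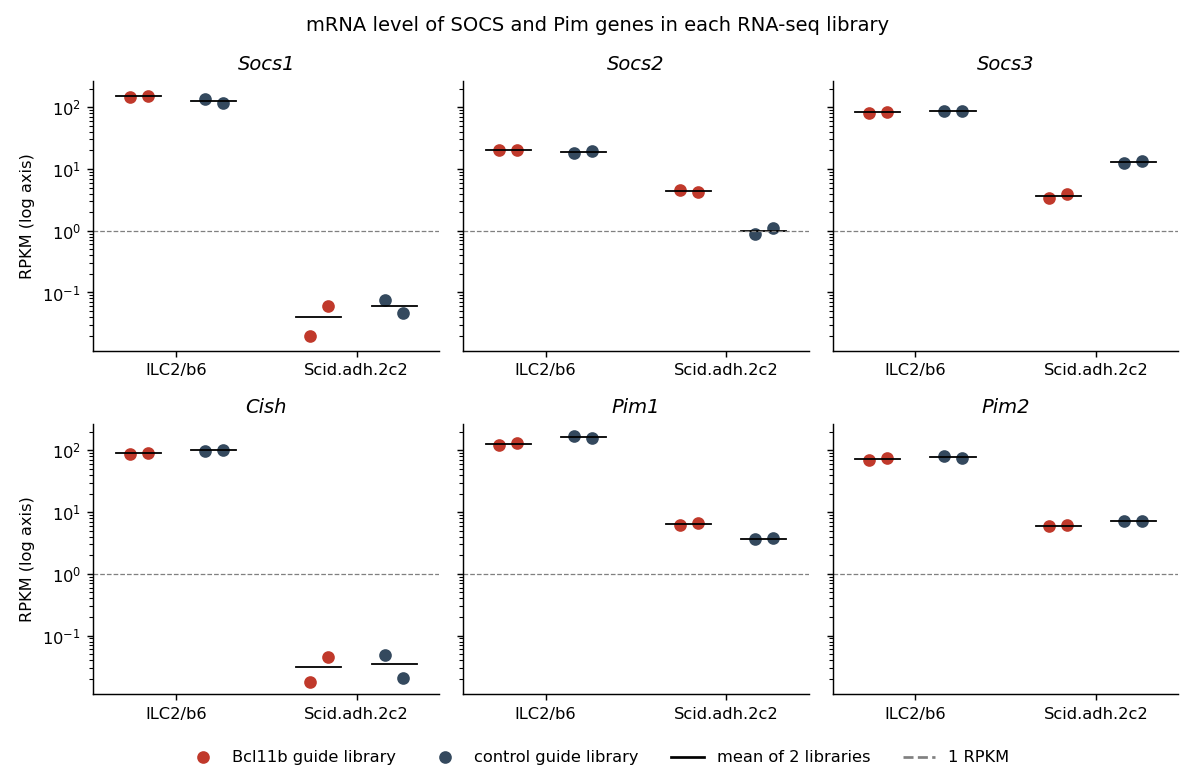
RPKM of each gene in each RNA-seq library, on a log axis, for ILC2/b6 and Scid.adh.2c2. Points are single libraries and short lines are the means of 2 libraries. The dashed line marks 1 RPKM. Socs1 and Cish stand at 88.7 RPKM or more in all ILC2/b6 libraries and at 0.075 RPKM or less in all Scid.adh.2c2 libraries.

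In ILC2/b6 the guide against Bcl11b moved these genes little. On log2(RPKM + 0.5) values tested with limma and called at an adjusted p under 0.05, 14.5% of the 10526 genes tested in this line were called, and 3 of the 6 members were (1 higher, against 8.32% of genes called higher, and 2 lower, against 6.21% called lower). In Scid.adh.2c2, where 57.8% of 10221 genes tested were called, 4 members passed the filter on low values and all 4 were called (2 higher, against 35.1% of genes, and 2 lower, against 22.7%). The 2 libraries of one guide stood wholly apart from the 2 of the other for 59.9% of genes tested in ILC2/b6 and for 80% in Scid.adh.2c2. They did so for every member tested in either line. The median of the 6 log2 fold changes in ILC2/b6 was -0.086, beside 0.015 over all genes tested. Centring each library on its median gene lowered log2 fold changes in Scid.adh.2c2 by 0.13, and turned the split of calls over all genes from 3589 higher and 2319 lower into 2466 higher and 3934 lower. The split in ILC2/b6 of 876 higher and 654 lower became 649 higher and 909 lower. Under that scaling the members' split of 1 higher and 2 lower in ILC2/b6 became 0 higher and 2 lower (1 and 1 with quantile normalization), and the split of 2 higher and 2 lower in Scid.adh.2c2 was the same. Socs2 passed the filter in Scid.adh.2c2 only through its Bcl11b guide libraries, so the count of 4 is no support for a change of the family.

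Socs2 encodes an adaptor of an E3 ubiquitin ligase, best known for damping growth hormone receptor signals. It lies on the minus strand of chromosome 10 at chr10:94874124-94879491 (mm9). In Scid.adh.2c2 it measured 4.52 and 4.16 RPKM with the Bcl11b guide, against 0.887 and 1.12 RPKM with the control guide. Both libraries with the Bcl11b guide were thus above both controls by far more than either pair differed. Means were 4.34 ± 0.255 RPKM with the Bcl11b guide and 1.00 ± 0.163 RPKM with the control guide (SD, n = 2 each), and the log2 fold change was 1.69 ± 0.11 (SE, adjusted p = 1.51e-05). Of the genes tested in this line, 96.2% changed less in either direction. In ILC2/b6 the same gene measured 20.3 and 20.3 RPKM with the Bcl11b guide, against 18.5 and 19.2 RPKM with the control guide. The pairs did not overlap, but the log2 fold change of 0.11 ± 0.04 did not pass the test (adjusted p = 0.141).

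Socs3 encodes an inhibitor that binds the shared chain gp130 and its JAK, and is the main brake on IL-6 type signals. It lies at chr11:117827401-117830680 on the minus strand (mm9). In Scid.adh.2c2 it went the other way from Socs2, with 3.43 and 3.94 RPKM with the Bcl11b guide, against 12.4 and 13.7 RPKM with the control guide. The means were 3.68 ± 0.359 RPKM with the Bcl11b guide and 13.0 ± 0.920 RPKM with the control guide (SD, n = 2 each), a log2 fold change of -1.69 ± 0.09 (SE, adjusted p = 4.56e-06). Again 96.2% of tested genes changed less. In ILC2/b6 it measured 81.3 and 84.2 RPKM with the Bcl11b guide, against 85.9 and 85.6 RPKM with the control guide. This log2 fold change of -0.051 ± 0.036 did not pass the test (adjusted p = 0.384).

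Pim1 encodes a kinase that is switched on by STAT5 and STAT3 and cooperates with Myc in mouse lymphoma. It lies at chr17:29627990-29632404 on the plus strand (mm9). In ILC2/b6 it measured 124 and 131 RPKM with the Bcl11b guide, against 168 and 156 RPKM with the control guide. Both Bcl11b guide libraries were thus below both controls. The means were 127 ± 5.31 RPKM with the Bcl11b guide and 162 ± 8.41 RPKM with the control guide (SD, n = 2 each), and the log2 fold change was -0.34 ± 0.05 (SE, adjusted p = 0.00460). In Scid.adh.2c2 it was higher instead, at 6.11 and 6.58 RPKM with the Bcl11b guide, against 3.62 and 3.85 RPKM with the control guide. There the log2 fold change was 0.69 ± 0.08 (adjusted p = 0.000293). The changes in ILC2/b6 and in Scid.adh.2c2 were larger than those of 92.7% and 86.1% of the genes tested. Without a filter on low values the call in ILC2/b6 was lost (adjusted p = 0.217).

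Pim2 encodes a related kinase, whose activity is set mainly by its own abundance, and lies at chrX:7455432-7460558 on the plus strand (mm9). It fell slightly in Scid.adh.2c2, where it measured 5.87 and 6.17 RPKM with the Bcl11b guide, against 7.12 and 7.24 RPKM with the control guide (log2 fold change -0.24 ± 0.07, adjusted p = 0.0211). This change was larger than that of 53.6% of the genes tested. The call was lost without Bcl11b guide library 1 (adjusted p = 0.220), without Bcl11b guide library 2 (adjusted p = 0.116) and without the filter on low values (adjusted p = 0.0597). In ILC2/b6 it measured 71.1 and 74.1 RPKM with the Bcl11b guide, against 82.1 and 75.8 RPKM with the control guide. The log2 fold change there was -0.12 ± 0.05 (adjusted p = 0.144), and without control library 2 it was called, at -0.18 (adjusted p = 0.0253).

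Socs1 encodes an inhibitor of JAK kinase activity and the main brake on interferon gamma and on common gamma chain cytokines in lymphocytes. It lies at chr16:10783902-10785629 on the minus strand (mm9). In ILC2/b6 it measured 146 and 153 RPKM with the Bcl11b guide, against 136 and 119 RPKM with the control guide. Both libraries with the Bcl11b guide were above both controls, but the controls differed from each other by more than the higher control differed from the nearest Bcl11b guide library. Means were 150 ± 5.23 RPKM with the Bcl11b guide and 127 ± 11.8 RPKM with the control guide (SD, n = 2 each), with a log2 fold change of 0.24 ± 0.06 (SE, adjusted p = 0.0463). That call was lost without the filter on low values (adjusted p = 0.458), with median-centred values (adjusted p = 0.0841), in a joint fit of both lines (adjusted p = 0.0809) and without Bcl11b guide library 2 (adjusted p = 0.137). In Scid.adh.2c2 only 1 and 3 reads fell on the gene with the Bcl11b guide, against 4 and 2 reads with the control guide. The summed reads gave 0.0406 RPKM with the Bcl11b guide (95% exact Poisson interval 0.0111 to 0.104) and 0.0629 RPKM with the control guide (0.0231 to 0.137). These intervals cover counting error only. They overlap, the gene did not pass the filter, and no change in it was detectable at this depth.

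Cish encodes CIS, a SOCS protein that is induced by STAT5 and binds the receptors that activate it. It lies at chr9:107198990-107205115 on the plus strand (mm9). In ILC2/b6 it measured 88.7 and 90.8 RPKM with the Bcl11b guide, against 98.5 and 102 RPKM with the control guide. The pairs stood apart, with a log2 fold change of -0.16 ± 0.04 (SE, adjusted p = 0.0299). The call was lost without the filter on low values (adjusted p = 0.203), with quantile normalization (adjusted p = 0.0893), in a joint fit (adjusted p = 0.111), without Bcl11b guide library 1 (adjusted p = 0.208) and without Bcl11b guide library 2 (adjusted p = 0.120). In Scid.adh.2c2 there were 2 and 5 reads with the Bcl11b guide, against 6 and 2 reads with the control guide. Summed, these were 0.0310 RPKM with the Bcl11b guide (95% exact Poisson interval 0.0124 to 0.0638) and 0.0366 RPKM with the control guide (0.0158 to 0.0720). The tables of the 2 lines use different transcript models of this gene, which differ in length by far less than these levels do.

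**Figure D2:**
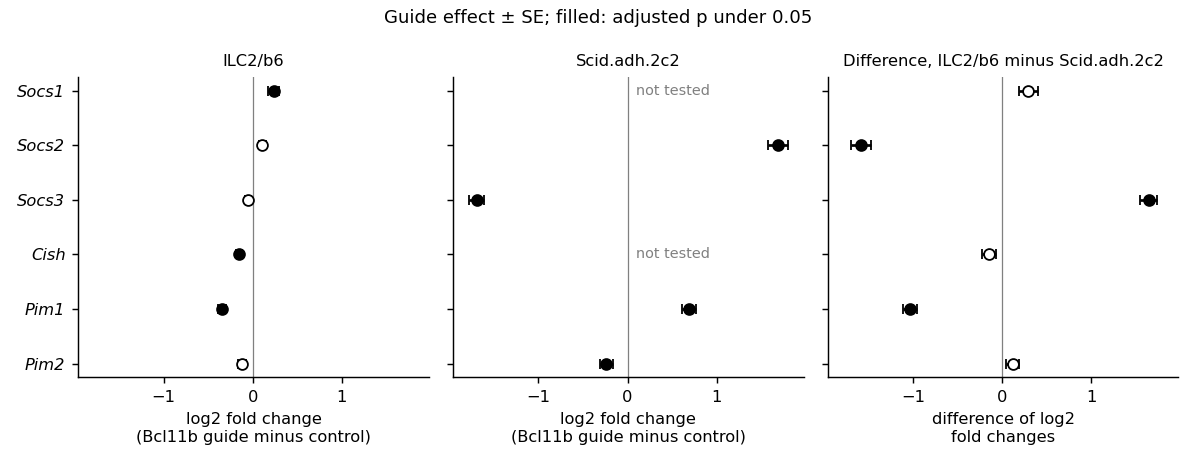
Log2 fold change with the Bcl11b guide over the control guide in ILC2/b6 (left) and Scid.adh.2c2 (middle), and the difference between the lines (right). Bars are SE from the limma fits, and filled points have an adjusted p under 0.05. Socs2 lies at 1.69 and Socs3 at -1.69 in Scid.adh.2c2, while all 6 genes lie between -0.34 and 0.24 in ILC2/b6.

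Whether the guide acted differently in the lines was tested by the contrast of guide effects, ILC2/b6 minus Scid.adh.2c2, over all 8 RNA libraries. It called 45.1% of 11609 genes and 3 of the 6 members. The guide effect on Socs2 was 0.11 in ILC2/b6, against 1.69 in Scid.adh.2c2, a difference of -1.58 ± 0.11 (SE, adjusted p = 1.42e-05). For Socs3 it was -0.051 in ILC2/b6, against -1.69 in Scid.adh.2c2, a difference of 1.64 ± 0.09 (adjusted p = 3.81e-06). Pim1 had effects of opposite sign, -0.34 in ILC2/b6, against 0.69 in Scid.adh.2c2, a difference of -1.04 ± 0.08 (adjusted p = 2.35e-05). The differences for Socs1 (0.29 ± 0.11, adjusted p = 0.0559), Cish (-0.15 ± 0.08, adjusted p = 0.164) and Pim2 (0.12 ± 0.07, adjusted p = 0.208) did not pass. As a result the gap between the lines differed by guide. Socs2 was 4.69 times as high in ILC2/b6 as in Scid.adh.2c2 with the Bcl11b guide, and 18.8 times with the control guide. For Pim1 the ratio was 20.1 with the Bcl11b guide and 43.4 with the control guide. Socs3 showed the opposite, with a ratio of 22.5 with the Bcl11b guide and 6.58 with the control guide. Pim2 averaged 72.6 RPKM in ILC2/b6, against 6.02 RPKM in Scid.adh.2c2, with the Bcl11b guide, and 79.0 RPKM in ILC2/b6, against 7.18 RPKM in Scid.adh.2c2, with the control guide.

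Genes of like pattern were sought among the 9147 genes tested in both lines, by the root mean square difference of log2 values, centred within each line, over the 8 libraries. Closest to Socs2 were Lztfl1 (0.0531), Clec2d (0.0557) and St8sia4 (0.0584). Closest to Socs3 were Bcar3 (0.0417), the cytokine gene Il10 (0.0676) and Mtf2 (0.0786). Il10 had a log2 fold change of -0.055 in ILC2/b6 and -1.58 in Scid.adh.2c2, beside -0.051 and -1.69 for Socs3. Pim1 was closest to Smad3 (0.0458), Fndc9 (0.0479) and Grap (0.0484), which also had negative values in ILC2/b6 (-0.37, -0.34 and -0.33) and positive ones in Scid.adh.2c2 (0.68, 0.76 and 0.64). For Pim2 the nearest were Tcf3 (0.0154), Clpp (0.0218) and Mrps5 (0.0220). These values describe likeness over 8 libraries that share lines and guides. The genes were picked for this likeness, so their like fold changes follow from the pick and are no further result.

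Binding near the 6 genes was read from the authors' lists, each made from 2 ChIP libraries together, so there is no spread between replicates. Most peaks carry the name of the gene with the nearest start site, distances are to the nearest annotated start, and the authors' scores serve to rank peaks inside a list. In the Bcl11b, Runx1 and Runx3 lists 7.37% to 8.31% of peaks carry no gene name, while every GATA3 peak has one. Member counts out of whole lists are thus not fully comparable between factors. In ILC2/b6 the members had 28 of 21677 Bcl11b peaks, 26 of 33709 GATA3 peaks, 28 of 26258 Runx1 peaks and 37 of 44938 Runx3 peaks. In Scid.adh.2c2 they had 24 of 17874 Bcl11b peaks, 8 of 36973 GATA3 peaks, 14 of 13664 Runx1 peaks and 16 of 20523 Runx3 peaks. Joined where they overlapped, the 181 peaks formed 73 sites, of which 43 were in ILC2/b6 lists only, 13 in Scid.adh.2c2 lists only and 17 in lists of both lines. Of the 43, 18 lay at Socs1. Sites were not counted over all genes, and the whole Bcl11b, Runx1 and Runx3 lists were longer in ILC2/b6. The split of sites is thus no result about the members. Of the 28 Bcl11b peaks in ILC2/b6, 8 (28.6%) overlapped by at least 1 bp a Bcl11b peak of Scid.adh.2c2, beside 35.6% of all Bcl11b peaks of the line. Of the 24 in Scid.adh.2c2, 8 (33.3%) overlapped one of ILC2/b6, beside 43.1% of all. These shared peaks lay at Socs1 (6) and Socs3 (2). A GATA3, Runx1 or Runx3 peak covered part of 24 of the 28 Bcl11b peaks in ILC2/b6 (beside 90.2% of all) and of 18 of the 24 in Scid.adh.2c2 (beside 80.1%). By factor, GATA3 covered 9 of the 28 in ILC2/b6 (beside 35% of all), Runx1 covered 18 (beside 71%) and Runx3 covered 22 (beside 85%), and GATA3 together with a Runx factor covered 7 (beside 32.9%). In Scid.adh.2c2, GATA3 covered 4 of the 24 (beside 19.3%), Runx1 covered 12 (beside 61.2%) and Runx3 covered 14 (beside 73.5%), and GATA3 together with a Runx factor covered 1 (beside 15.6%). No test was made of lists without replicates. The share for GATA3 in ILC2/b6 was close to that of the whole list under other settings. GATA3 covered 33.3% of the member peaks in ILC2/b6, beside 30.6% of all, with at least double the lowest score, and 32.1%, beside 32.0%, where an overlap had to reach 50% of the shorter peak. Not every share was as close. With at least double the lowest score, Runx3 covered 71.4% in ILC2/b6, beside 86.3%, and Runx1 61.9%, beside 63.9%. In Scid.adh.2c2 only 9 member peaks were left. Of these Runx3 covered 44.4%, beside 62.1% of all, Runx1 11.1%, beside 46.6%, and GATA3 11.1%, beside 16.9%.

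**Figure D3:**
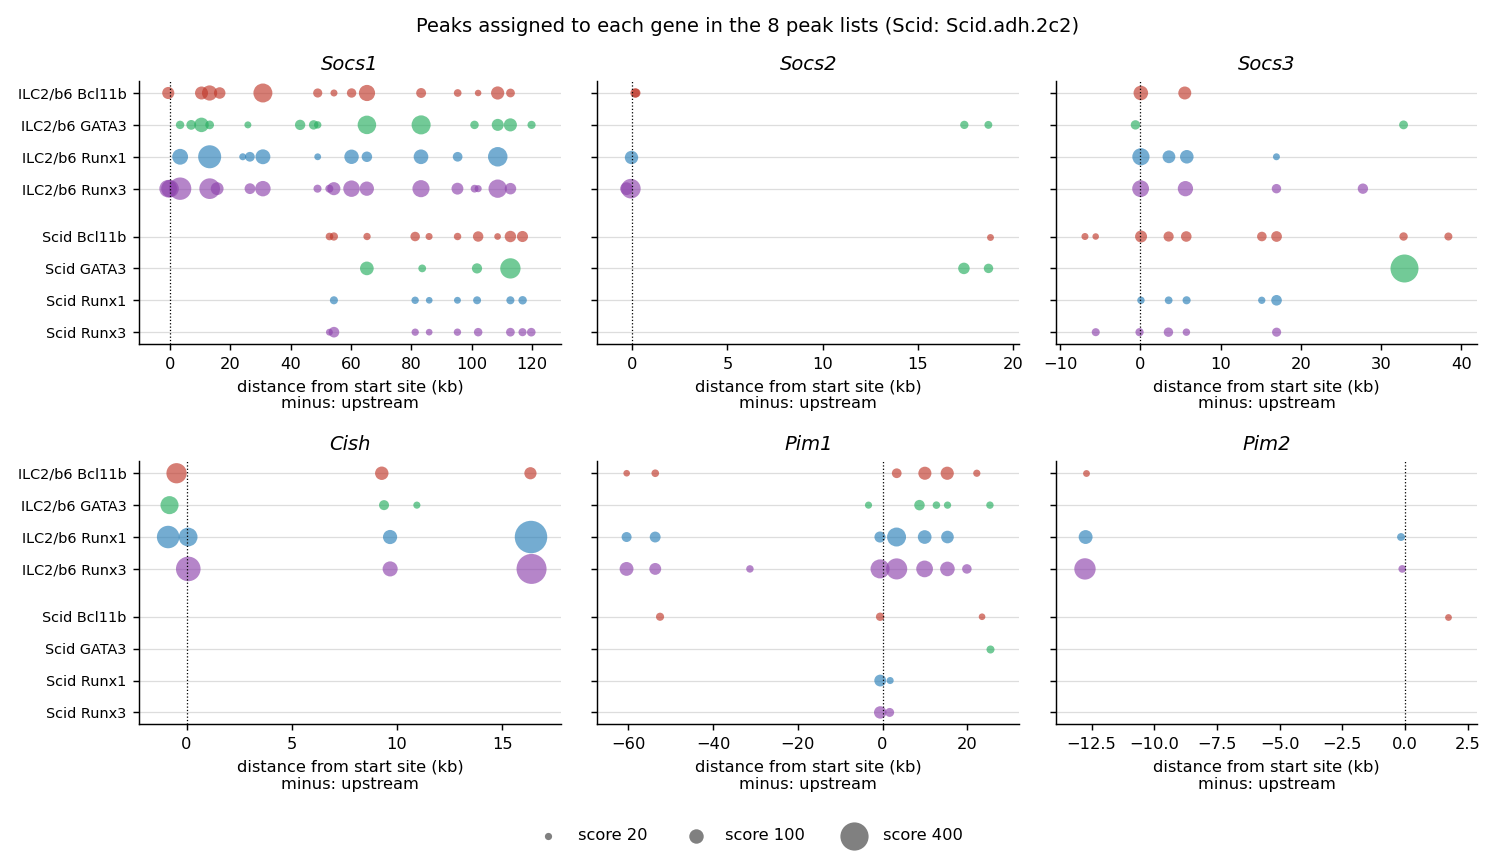
Position of every peak assigned to each gene, as the distance in kb of the peak centre from the start site (minus is upstream), for the 4 ILC2/b6 lists above the 4 Scid.adh.2c2 lists. The area of a point grows with the authors' peak score. Cish has no point in any Scid.adh.2c2 row, the Socs1 points of Scid.adh.2c2 all lie more than 50 kb downstream, and Socs3 has 9 Bcl11b points in Scid.adh.2c2 and 2 in ILC2/b6.

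Cish had 13 peaks at 7 sites in ILC2/b6 and none in any of the Scid.adh.2c2 lists. Just upstream of its start stood a Runx1 peak at -873 bp (score 252.1), a GATA3 peak at -808 bp (score 160.1) and a Bcl11b peak at -474 bp (score 203, above 99.7% of that list). Runx1 and Runx3 peaks covered the start itself, at 76 bp (score 173.8) and 83 bp (score 302.9). Farther down, 16.4 kb past the start, lay the highest member peaks in both Runx lists, with a Runx1 score of 532.2 (rank 19 of 26258) and a Runx3 score of 453.8 (rank 188 of 44938), together with a Bcl11b peak (score 69.4). Bcl11b and GATA3 also shared a site 9.27 to 9.38 kb past the start.

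The start regions of Cish and Socs3 are shown because peaks lie on them and because they alone among the members held a STAT-type motif. RefSeq promoters (GRCm38.p6, not the build of the peak lists) were on hand for 5 of the 6 genes, in 6 windows of 250 bases before to 50 after a start, and Socs2 had none. Both strands were searched for 3 motifs. The STAT-type motif TTCNNNGAA, which reads the same on both strands, was in 8.30% of 32851 mouse promoter windows of this length. The Runx core ACCACA was in 16.8% of them. The GATA motif AGATAA was in 11.2%. The stretches from 200 bases before the start to 20 after it follow, 5′ to 3′ on the gene's strand, with matches to TTCNNNGAA in capitals:
Cish: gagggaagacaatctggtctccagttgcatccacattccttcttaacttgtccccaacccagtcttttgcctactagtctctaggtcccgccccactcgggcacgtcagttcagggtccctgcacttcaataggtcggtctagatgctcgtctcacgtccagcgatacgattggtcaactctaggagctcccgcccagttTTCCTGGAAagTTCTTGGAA
Socs3: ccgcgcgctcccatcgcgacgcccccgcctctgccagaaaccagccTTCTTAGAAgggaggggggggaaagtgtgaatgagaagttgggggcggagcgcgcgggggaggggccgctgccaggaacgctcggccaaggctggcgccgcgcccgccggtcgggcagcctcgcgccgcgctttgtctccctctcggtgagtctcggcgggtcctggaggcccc

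Cish held 2 matches, TTCCTGGAA at bases 1 to 9 and TTCTTGGAA at bases 12 to 20 counted from the start, and 0.457% of all windows held 2 or more. Socs3 held 1, TTCTTAGAA at -154 to -146. No member window held ACCACA. None held AGATAA, so no match of one motif overlapped a match of another. Matches of letters describe the sequence and are not bound sites, and a missing match says only that these letters are not in the window.

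Socs3 had 2 Bcl11b peaks in ILC2/b6, against 9 in Scid.adh.2c2 (more than 99.1% of genes with a peak in that list). With at least double the lowest score it had 2 in ILC2/b6, against 5 in Scid.adh.2c2. Both ILC2/b6 peaks, at 61 bp (score 101.7) and 5.54 kb past the start (score 79.6), overlapped Scid.adh.2c2 peaks at 89 bp (score 66.9) and 5.72 kb (score 50.7). Runx1 and Runx3 peaks stood at these positions in both lines. The other 7 Scid.adh.2c2 peaks, from 6.9 kb upstream to 38.4 kb downstream, had scores of 15.2 to 52.3. GATA3 gave 1 peak in Scid.adh.2c2, 32.8 kb downstream, with a score of 393.8 (rank 96 of 36973), on which a Bcl11b peak of score 29.5 also lay. In ILC2/b6 a GATA3 peak at the same place had a score of 33.3, above 65.0% of its own list, while the Scid.adh.2c2 peak was above 99.7% of its list.

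Socs1 had the most peaks of the members in each of the 8 lists, with 14 Bcl11b peaks in ILC2/b6 (rank 33 of the 9601 genes with a peak) and 10 in Scid.adh.2c2 (rank 48 of 9259). In Scid.adh.2c2 its 10 Bcl11b, 4 GATA3, 7 Runx1 and 9 Runx3 peaks all lay more than 50 kb past its start, and the file annotation places them inside introns of the neighbouring gene Clec16a. In ILC2/b6, 6 Bcl11b, 8 GATA3, 6 Runx1 and 8 Runx3 peaks lay within 50 kb. These included a Bcl11b peak at -529 bp (score 68.4), Runx3 peaks at 53 bp (score 151.4) and -571 bp (score 151.1), and a Bcl11b peak 30.8 kb downstream with a score of 177.2 (rank 113 of 21677). At 13.2 kb all 4 factors had a peak, led by Runx1 (score 264.3) and Runx3 (score 211.5). Assignment to the nearest start does not show which gene a peak serves. Clec16a was at 6.22 and 6.10 RPKM with the Bcl11b guide, against 6.02 and 6.16 RPKM with the control guide in ILC2/b6, and at 7.03 and 6.85 RPKM with the Bcl11b guide, against 6.38 and 6.98 RPKM with the control guide in Scid.adh.2c2. Socs1 itself had 4 summed reads with the Bcl11b guide and 6 with the control guide in Scid.adh.2c2.

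Pim1 had 6 Bcl11b, 5 GATA3, 6 Runx1 and 8 Runx3 peaks in ILC2/b6, against 3 Bcl11b, 1 GATA3, 2 Runx1 and 2 Runx3 peaks in Scid.adh.2c2. None of its Bcl11b peaks was shared between the lines. In ILC2/b6 they lay in the last intron at 3.35 kb (score 42), downstream at 10.0 kb (score 81), 15.3 kb (score 82.2) and 22.3 kb (score 20), and upstream at -53.6 and -60.4 kb. A Runx1 and a Runx3 peak accompanied 5 of these 6. In Scid.adh.2c2 the Bcl11b peaks were at -571 bp (score 29.3), 23.5 kb (score 15.9) and -52.5 kb (score 27.2). The promoter site at -571 bp also had Runx1 (score 65.4) and Runx3 (score 72.6) there. Runx1 and Runx3 peaks lay on that promoter site in ILC2/b6 as well, but no Bcl11b peak did.

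Socs2 and Pim2 had few peaks. For Socs2 the ILC2/b6 lists placed Bcl11b at 147 and 196 bp past 2 of its start sites (scores 39.6 and 34.2), with Runx1 (score 84.8) and Runx3 (score 189.9) at -77 bp, in a stretch that the annotation also gives as the promoter of the divergent gene 5730420D15Rik. In Scid.adh.2c2, where its mRNA changed, no peak lay at the start. The Bcl11b peak there was 18.8 kb downstream with a score of 17.6, above 13.1% of its list, at a site that also had a GATA3 peak in both lines. For Pim2 the ILC2/b6 Bcl11b peak was 12.7 kb upstream inside an intron of Otud5 (score 17.3), with Runx3 (score 226.6) and Runx1 (score 92.1). Its only Scid.adh.2c2 peak in any list was a Bcl11b peak of score 16.9, in an intron 1.73 kb past the start.

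The genes around the members in this pathway were counted in 8 lists of 84 genes. In ILC2/b6, 17 of the 73 tested were called (9 higher and 8 lower), or 23.3%, beside 14.5% of all genes. In Scid.adh.2c2, 56 of the 68 tested were called (44 higher and 12 lower), or 82.4%, beside 57.8% of all genes. With median-centred values 46 of the 68 were called (33 higher and 13 lower), beside 6400 of the 10221 genes tested in this line. With quantile normalization 48 were called (33 higher and 15 lower), beside 6361 of 10221. Of those 68, 6 passed the filter on low values only through the Bcl11b guide libraries, so the share of 82.4% is no support for a change of the pathway. The median log2 fold change was 0.0028 in ILC2/b6, beside 0.015 over all genes tested, and 0.28 in Scid.adh.2c2, beside 0.053.

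Among the closest relatives, Pim3, the other Pim kinase gene, fell in ILC2/b6 to 18.8 and 18.8 RPKM with the Bcl11b guide, against 24.4 and 22.9 RPKM with the control guide (log2 fold change -0.33 ± 0.05, adjusted p = 0.00474). In Scid.adh.2c2 it had a log2 fold change of -0.030 ± 0.13 (adjusted p = 0.857). Socs5 (0.42) and Socs6 (0.18) rose slightly in Scid.adh.2c2, the call of Socs6 being lost with median-centred values (adjusted p = 0.421), and none of the 3 other SOCS genes tested in ILC2/b6 was called. Upstream, all 4 JAK genes rose in Scid.adh.2c2, where 35.1% of all genes were called higher. Their log2 fold changes were 1.21 for Jak2, 1.07 for Tyk2, 0.92 for Jak3 and 0.75 for Jak1. In ILC2/b6 only Jak3 of the 4 was called, at -0.15, and it was not called with quantile normalization (adjusted p = 0.112). Among the STAT genes, Stat2 (1.83), which carries interferon signals, and Stat3 (1.15) rose in Scid.adh.2c2, and Stat5a (-0.33), which carries IL-2 and IL-7 signals, fell. In ILC2/b6, Stat4 (0.38) and Stat5a (0.23) rose.

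Cytokine receptor chains split in Scid.adh.2c2, where 9 of 16 tested rose and 4 fell (7 and 6 with quantile normalization), beside 35.1% of all genes called higher and 22.7% called lower. Il2rb, the IL-2 and IL-15 receptor beta chain, rose by 5.86 on the log2 scale and Il12rb1 by 1.98, whereas Il2ra, the IL-2 receptor alpha chain, had -1.86 and Il9r -1.25. In ILC2/b6, 4 of 19 rose and 3 fell, beside 8.32% of all genes called higher and 6.21% called lower. They were led by Csf2rb2 (0.76), Il21r (-0.55), Csf2rb (0.25) and Ifnar2 (0.25). Of the ligands, Csf2 (3.65), Ifng (2.65), Il4 (2.59) and Il13 (2.18) rose in Scid.adh.2c2 and Il10 fell, while the other 7 of the 12 did not pass the filter. The 4 that rose passed it only through the Bcl11b guide libraries, so their count says nothing about ligands as a group. In ILC2/b6 the type 2 cytokine genes Il13 (-0.52) and Il4 (-0.37) fell, and the other 4 tested were not called.

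Other brakes on this pathway were higher in 8 of 12 cases in Scid.adh.2c2 and lower in none, beside 57.8% of all genes called and 35.1% called higher. They were led by the phosphatase gene Ptprc (0.81), Pias3 (0.68), and the phosphatase genes Ptpn1 (0.33) and Ptpn6 (0.28). With median-centred values only 3 of the 12 were higher and 1 was lower, and Ptpn6 was not called (adjusted p = 0.0674). In ILC2/b6 the adaptor gene Sh2b3, whose product binds JAK2, was the only one of 12 called (0.78 ± 0.07, adjusted p = 0.000603). Genes known as STAT targets were called in 10 of 11 cases in Scid.adh.2c2, beside 57.8% of all genes, and Lif and Bcl2 passed the filter only through the Bcl11b guide libraries. Lif (2.28), Id2 (2.24), Bcl2 (1.39) and Bcl6 (1.24) were the largest of 8 that rose, and 2 fell. In ILC2/b6 only Lif was called (0.24). Among the genes of known PIM kinase substrates and partners, 5 of 9 rose and 3 fell in Scid.adh.2c2 (2 and 3 with median-centred values). Of all genes there, 35.1% were called higher and 22.7% lower. The largest changes of this list were in Myb (-1.58), Foxo3 (1.09), Eif4ebp1 (-0.52) and Cdc25a (-0.42). Eif4ebp1 (-0.28) and Foxo1 (0.24) were the 2 of 10 called in ILC2/b6, beside 14.5% of all genes. Foxo1 lost its call with median-centred values (adjusted p = 0.0594).

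**Figure D4:**
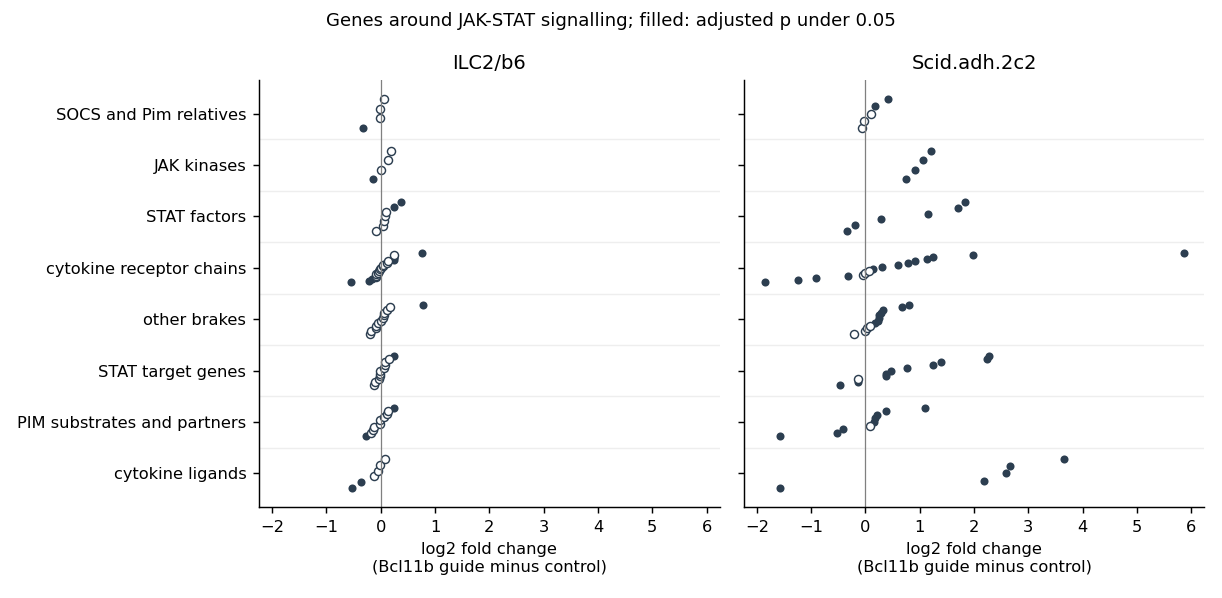
Log2 fold change with the Bcl11b guide over the control guide for the genes of the 8 lists that were tested, in ILC2/b6 (left) and Scid.adh.2c2 (right), 1 point per gene. Filled points have an adjusted p under 0.05. Points of ILC2/b6 lie between -0.55 and 0.78, and the JAK genes of Scid.adh.2c2 all lie at or above 0.75.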

How the data were processed

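The authors deposited RPKM values for each RNA library, in 1 table per line, and 8 peak lists with a score per peak; per the file headers the lists were filtered by irreproducible discovery rate over 2 libraries and annotated with HOMER on mm9. Per the submitters' processing notes, Trimmomatic, STAR 2.4.0, RSEM 1.2.25, edgeR 3.6.8, HOMER and Bowtie 1.1.1 were used, in roles that are not given. Whole reads and depth were recovered from the RPKM steps (tolerance 0.1 read).

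A gene needed 1 RPKM or more in 2 or more libraries to be tested. The test was limma 3.58.1 under R 4.3.3, with its trend of variance on mean, applied to log2(RPKM + 0.5). P-values were adjusted over all genes tested by Benjamini-Hochberg. This scale understates the change of low genes. The members and lists were chosen with earlier results of these data known. All members were named, and of each list at most the 4 largest called changes per line. A result of the STAT list is not reported here. Alternatives were other pseudocounts, filters and scalings, a joint fit, a replicate block, each library left out, stricter peaks and other overlaps. Input libraries were not used.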

Additional observations from a re-analysis of the deposited data

Results flagged for a closer look

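For 3 genes the effect of the guide differed between the lines by the limma interaction test. The guide effect on Socs2 was 0.11 in ILC2/b6, against 1.69 in Scid.adh.2c2 (log2 scale), a difference of -1.58 with an adjusted p of 1.42e-05. All 4 libraries of Scid.adh.2c2 followed that direction, both Bcl11b guide libraries lying above both controls. For Socs3 it was -0.051 in ILC2/b6, against -1.69 in Scid.adh.2c2, a difference of 1.64 (adjusted p = 3.81e-06). Pim1 was the only one of the 3 called in both lines, with effects of opposite sign, -0.34 in ILC2/b6, against 0.69 in Scid.adh.2c2, a difference of -1.04 (adjusted p = 2.35e-05). The same contrast called 45.1% of all genes tested. No group had more than 2 libraries, so no single library could be called out of line with its group.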

How the results depend on the processing

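The calls of Socs2, Socs3 and Pim1 in Scid.adh.2c2, and their differences between lines, held under every alternative run. The highest adjusted p over these alternatives was 0.0221 for Socs2, 0.0167 for Socs3 and 0.0277 for Pim1 in Scid.adh.2c2. Members called in ILC2/b6 numbered 3, against 0 by limma without an expression filter (3 at an unadjusted p under 0.05), 1 in the joint fit and 1 to 4 with 1 library left out. Pathway genes called there numbered 17, against 0 by limma without the filter (28 at an unadjusted p under 0.05), 9 in the joint fit and 10 to 22 with 1 library left out. All genes called in ILC2/b6 were 1530, against 133 without the filter and 807 to 2099 with 1 library left out, and in Scid.adh.2c2 5908, against 3835 without the filter and 3760 to 6878 with 1 library left out. A group left with 1 library is assumed to vary like the other. The lowest of these came without a Bcl11b guide library: 923 and 807 in ILC2/b6 without library 1 or 2, and 3818 and 3760 in Scid.adh.2c2. For the pathway genes of ILC2/b6 they came without Bcl11b guide library 2 (10) and control library 1 (11), and for its members without Bcl11b guide library 2 (1). Members differing between lines were 3, against 5 after quantile normalization or median-centring, which added Socs1 and Pim2, and 3 to 4 with 1 library left out. Socs1 also passed with a pseudocount of 1 RPKM (adjusted p = 0.0479). It had at most 4 reads in any Scid.adh.2c2 library, so its passes cannot show that the guide acted differently there. The difference for Cish, -0.15 and not called, became 0.052 with quantile normalization (adjusted p = 0.721). In Scid.adh.2c2, leaving out 1 library gave 3 to 4 members and 41 to 58 pathway genes called. The causes were not tested.

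With at least double the lowest score, member peaks fell to 15 for GATA3 in ILC2/b6, and in Scid.adh.2c2 to 9 for Bcl11b, 2 for Runx1 and 8 for Runx3. Within 50 kb of the start they fell to 18 for Bcl11b in ILC2/b6, and in Scid.adh.2c2 to 13 for Bcl11b, 4 for GATA3, 7 for Runx1 and 7 for Runx3. Under the stricter score the whole Bcl11b lists fell to 9474 peaks in ILC2/b6 and 7807 in Scid.adh.2c2. Of the member Bcl11b peaks left, 3 of 21 in ILC2/b6 were shared between lines (14.3%, beside 31.8% of all). In Scid.adh.2c2 3 of 9 were shared (33.3%, beside 38.6%). A partner peak lay on 17 of the 21 in ILC2/b6 (81.0%, beside 90.1%) and on 4 of the 9 in Scid.adh.2c2 (44.4%, beside 68.2%).

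Whether the replicate numbers pair the libraries is not known. Deviations of same-numbered libraries correlated weakly, at 0.106 in ILC2/b6 and 0.0373 in Scid.adh.2c2, which cannot exclude a pairing. With the replicate number as a block, 3 members and 22 pathway genes were called in ILC2/b6. There 2258 of all 10526 genes were called, against 1530 without the block. In Scid.adh.2c2 the block gave 4 members and 56 pathway genes, beside 5921 of 10221 genes, against 5908 without it. Under the block 3 members differed between the lines. With 2 libraries a group, small changes are limited by the spread, and Socs1 and Cish in Scid.adh.2c2 by depth.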
